A study of Mus musculus with 3 samples.

Results

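Natural killer (NK) cells with high Gzmc, the gene of granzyme C, were picked from 3 single-cell libraries of tumour leukocytes by 5 limits on raw counts per cell. A cell had at least 2 counts of Ncr1 and Klrb1c together, at most 1 count of Cd3d, Cd3e and Cd3g together, fewer than 10 counts of C1qa, C1qb and C1qc together, at least 5 counts of Gzmc, and at most 1 count of the cell cycle genes Mki67, Top2a, Birc5 and Ube2c together. These limits kept 250 of 43730 cells (0.572%), namely 150 at 4 months, 52 at 12 months and 48 at 20 months. They were compared with 1625 NK cells that met the other limits but held fewer than 5 Gzmc counts, of which 980, 286 and 359 came from those ages. The limits used measured values, so the levels of the genes in them are given as a description and were not tested.

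The 3 groups were mice aged 4, 12 and 20 months, 7 per age, each injected under the skin with 500000 cells of YUMM1.7, a transplantable mouse melanoma line. No genotype or drug treatment is given for any age. Tumours were taken 18 days later, and live cells binding an antibody to CD45.2, a leukocyte surface protein, were sorted. There was 1 library per age, made with a PIP-seq 3′ kit that partitions cells in droplets without a microfluidic chip, and the labels do not say whether the 7 mice were pooled. All groups carried the same tumour line, and none was free of tumour. The series is named for macrophage states in ageing, so a contrast between classes of NK cells is not one the labels state.

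NK cells are innate lymphocytes that kill target cells by releasing granules of perforin and granzymes, and that secrete cytokines and chemokines. Granzymes A and B are the abundant granzymes of mouse NK cells. Granzymes C, D, E, F, G and N are encoded beside granzyme B in mice. Of these, C, D, E, F and G are made mainly by strongly stimulated killer lymphocytes. NK cells that circulate carry receptors of the Ly49 family (Klra genes), whereas those held in tissue, and related type 1 innate lymphoid cells, carry the collagen receptor subunit CD49a (Itga1).

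The libraries held 14393, 14653 and 14684 cells in age order, with totals of 110371225, 127850782 and 119873564 counts and medians of 6789, 7411 and 6936 counts per cell. Gzmc-high cells had median totals of 7011, 5822 and 7068 counts and the cells with low Gzmc 6244, 6118 and 5778. Pairs of libraries shared 2 to 4 cell barcodes, and no Gzmc-high cell was among them. The summed level of 13 T cell markers, 3 of them the Cd3 genes that the rule caps, was 1618, 1885 and 1764 CPM (summed counts of a gene scaled to 1000000 counts of the class in a library) in Gzmc-high cells, near the 1507, 1862 and 1668 CPM of the cells with low Gzmc and far below the 11154, 10351 and 9786 CPM of T cells (at least 8 Cd3 counts, no Ncr1 or Klrb1c). In macrophages (at least 40 C1q counts, at most 1 of Ncr1 and Klrb1c) the same markers summed to 933, 1481 and 1279 CPM. Of 8 markers of type 2 and 3 innate lymphoid cells, 5 or 6 were at 0 in the Gzmc-high cells of each library. Of 7 B and plasma cell markers 4 or 5 were at 0, Cd79a and Ms4a1 among them in every library, but the list summed to 290, 227 and 259 CPM, above the 196, 218 and 213 CPM of the low class, nearly all of it Ighm, which macrophages held at 220, 272 and 256 CPM. Myeloid markers summed to 2273, 2404 and 2667 CPM in Gzmc-high cells, 1891, 2199 and 2289 CPM in T cells and 18969, 20230 and 23111 CPM in macrophages. The part of free RNA in these sums was not tested. The doublet caller marked 4, 2 and 4 of the Gzmc-high cells.

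Gzmc was restricted to a small set of cells in the whole series. Only 534, 500 and 361 cells of the libraries held at least 5 Gzmc counts, and 524, 489 and 348 of these had at least 2 counts of Ncr1 and Klrb1c. Among T cells the threshold was reached by 1 of 2995, 4 of 4120 and 7 of 4624 cells, and among macrophages by 1 of 1233, 1 of 1442 and 0 of 2320, which allows a share of up to 0.129% in the last. These T cells were picked for having no Ncr1 or Klrb1c count, and the macrophages for at most 1. The shares therefore leave out any T cell that carries these NK genes together with Gzmc. Gzmc-high cells held medians of 15, 17 and 17 Gzmc counts, up to 276, 196 and 268. At the edge of the rule, 20, 7 and 4 of them had exactly 5 counts, and 16, 8 and 7 cells on the other side had 4. The summed level of Gzmc was 3510, 4619 and 4838 CPM in the high class. It was 103, 97.1 and 76.2 CPM in the low class, 70.0, 61.3 and 32.6 CPM in T cells and 54.1, 48.8 and 25.1 CPM in macrophages. The low class stood above T cells and macrophages in every library, but far nearer to them than to the high class.

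The limit on Cd3 removed most cells with high Gzmc. Of the cells with at least 5 Gzmc counts and at least 2 of Ncr1 and Klrb1c, 356, 427 and 292 (67.9%, 87.3% and 83.9%) had more than 1 Cd3 count. The same Cd3 limit was exceeded by 66.9%, 90.6% and 82.2% of macrophages, which do not express Cd3, with median Cd3 counts of 2, 4 and 3. Depth was not matched, since macrophages had median totals of 9403, 10201 and 9233 counts, against 7011, 5822 and 7068 in the Gzmc-high cells kept. Whether the Cd3 counts of the removed cells were their own was not tested. The order of the libraries was the same in both cell types. The numbers of Gzmc-high cells per library therefore do not measure how many such cells the tumours held. A wider gate, with at most 5 Cd3 and at most 15 Lyz2 counts (Lyz2 being lysozyme of myeloid cells), was added after these values were seen. It held 369, 270 and 203 Gzmc-high cells, and its values are given beside those of the rule.

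The Gzmc-high share of non-dividing NK cells was much the same at the 3 ages. It was 13.3% at 4 months (150 of 1130 cells, 95% exact binomial interval 11.3% to 15.4%), 15.4% at 12 months (52 of 338, 11.7% to 19.7%) and 11.8% at 20 months (48 of 407, 8.82% to 15.3%). With the wider gate it was 17.1% (15.5% to 18.8%), 17.6% (15.7% to 19.6%) and 16.4% (14.4% to 18.6%). With every cell thinned to 3500 counts and a threshold of 3 Gzmc counts it was 12.6%, 16.6% and 12.5%. The intervals of the 3 ages overlap in both gates, they cover counting error only, and with 1 library per age no difference between ages has a replicate check. Before dividing cells were left out, 9.64% (5.61% to 15.2%), 16.1% (8.02% to 27.7%) and 9.43% (3.13% to 20.7%) of Gzmc-high cells were dividing. Among cells with low Gzmc the shares were 6.76% (5.31% to 8.45%), 9.21% (6.25% to 13.0%) and 8.18% (5.67% to 11.4%), lower at each age but within overlapping intervals.

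**Figure D1:**
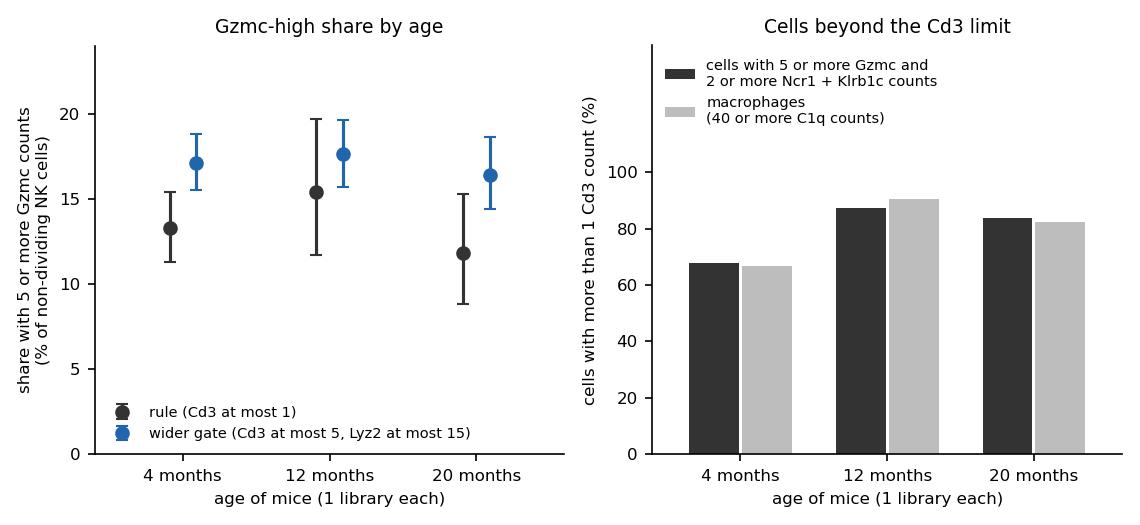
Left, share of non-dividing NK cells with 5 or more Gzmc counts (percent, 95% exact binomial intervals) in the library of each age, by the rule and by the wider gate; the values lie between 11.8% and 17.6%. Right, percent of cells with more than 1 Cd3 count among cells with high Gzmc and Ncr1 or Klrb1c (dark) and among macrophages (light). The bars of the pair in each library differ by less than 4 percentage points, with cells not matched for depth.

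The neighbouring granzyme genes were the ones that rose most with Gzmc. On chromosome 14 (GRCm38, GENCODE M21, minus strand) the cluster runs from Gzmb (chr14:56258838-56262260) through Gzmc (chr14:56231441-56234656), Gzmf (chr14:56205263-56211417), Gzmn, Gzmg and Gzmd (chr14:56129556-56132608) to Gzme (chr14:56117626-56120625). The 250 bases before the start of Gzmc, of the neighbours Gzmd and Gzmf that rose with it, and of Gzmb, which rose far less, are printed as a description of their letters. The starts are those of RefSeq on GRCm38.p6, which for Gzmd and Gzmf lie just inside and for Gzmb outside the gene as GENCODE gives it. The windows are on the minus strand, read 5′ to 3′ at chr14:56234658-56234907 for Gzmc, chr14:56132594-56132843 for Gzmd, chr14:56211408-56211657 for Gzmf and chr14:56262335-56262584 for Gzmb. Capitals mark matches, on either strand, to TGTGGT (the core bound by Runx factors, also ACCACA on the other strand), TCACAC (bound by T-box factors) and TGANTCA (AP-1).
Gzmc: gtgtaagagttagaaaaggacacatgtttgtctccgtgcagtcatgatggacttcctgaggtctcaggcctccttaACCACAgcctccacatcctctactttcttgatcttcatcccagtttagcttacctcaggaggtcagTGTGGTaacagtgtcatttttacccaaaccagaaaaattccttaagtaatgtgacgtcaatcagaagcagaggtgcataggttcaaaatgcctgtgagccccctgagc
Gzmd: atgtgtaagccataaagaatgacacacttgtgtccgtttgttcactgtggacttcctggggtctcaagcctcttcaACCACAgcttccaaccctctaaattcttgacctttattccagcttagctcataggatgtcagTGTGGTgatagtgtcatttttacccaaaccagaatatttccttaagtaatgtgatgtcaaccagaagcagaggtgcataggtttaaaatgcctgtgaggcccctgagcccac
Gzmf: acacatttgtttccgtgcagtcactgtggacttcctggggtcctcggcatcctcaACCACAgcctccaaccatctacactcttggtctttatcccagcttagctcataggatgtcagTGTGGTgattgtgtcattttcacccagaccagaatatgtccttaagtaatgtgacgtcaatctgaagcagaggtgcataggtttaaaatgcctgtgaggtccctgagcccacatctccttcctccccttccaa
Gzmb: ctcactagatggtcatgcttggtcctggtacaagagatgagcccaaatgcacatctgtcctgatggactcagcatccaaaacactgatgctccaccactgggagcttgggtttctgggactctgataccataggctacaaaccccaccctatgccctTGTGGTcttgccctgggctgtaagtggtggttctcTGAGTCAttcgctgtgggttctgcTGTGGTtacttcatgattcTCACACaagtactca
Over these 250 bases the Gzmc window was 81.3% identical to that of Gzmd, 81.8% to that of Gzme, 74.5% to that of Gzmg and 71.5% to that of Gzmf, but 47.9% to that of Gzmb and 47.7% to that of Gzmn. The windows of Gzmc, Gzmd, Gzme, Gzmf and Gzmg each held 2 Runx cores in opposite orientation, 66 bases apart in Gzmc and 62 in the other four, and neither of the other motifs. The Gzmb window held 2 Runx cores in the same orientation, 1 T-box match and 1 AP-1 match, and the Gzmn window held none of the 3 motifs. Gzmn, whose window was as unlike that of Gzmc as that of Gzmb, was nevertheless higher with Gzmc in the wider gate, as the other neighbours were. The part of these windows in the rises was not tested. At least 1 Runx core was present in 14% of 32851 promoter windows of this length and at least 2 in 1.27%, while 12.3% held the T-box motif and 6.75% the AP-1 motif. A match is a description of the letters and not a binding site.

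Gzmd measured 71.6, 67.8 and 346 CPM in Gzmc-high cells of the 4-, 12- and 20-month libraries and 4.25, 3.18 and 1.78 CPM in cells with low Gzmc. Its difference was 5.19 ± 0.32 on the log2 scale (fitted value ± SE, n = 3 libraries, adjusted p = 7.02e-14 by edgeR's quasi-likelihood test on counts summed per library and class, with Benjamini-Hochberg adjustment over all genes tested, as for every adjusted p below). Gzmf measured 40.7, 38.3 and 428 CPM against 2.73, 2.65 and 5.35 CPM, a difference of 5.10 ± 0.32 (edgeR adjusted p = 7.02e-14). The 3 high values of both genes lay far above the 3 low ones, and in the high class the 20-month library stood far above the others. All 3 high values lay above all 3 low ones, by any margin, in 5.13% of all tested genes. By the rule both genes passed the filter on low counts through the high class alone, so their p-values add nothing to the levels. Few cells carried these transcripts, since the 5 cells with the most Gzmd held 76.5%, 95.7% and 78.7% of its counts, and for Gzmf 89.1%, 100% and 99.4%. Gzme, at 30.9, 5.89 and 150 CPM against 1.37, 1.59 and 1.34, and Gzmg and Gzmn, at 2.65 to 35.5 CPM in Gzmc-high cells, were below the filter on low counts and were not tested. All 5 neighbours were above the filter in the wider gate. Their fitted log2 differences there were 5.51 (Gzmd), 5.53 (Gzme), 5.67 (Gzmf), 5.21 (Gzmg) and 5.36 (Gzmn). Any count of the 5 was found in only 4.92%, 3.71% and 4.92% of the Gzmc-low cells of that gate, so no p-value is given.

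The last 300 bases of the Gzmc transcript, where a 3′ kit reads, were 49.2% to 54.1% identical to those of the 5 neighbours, and the longest run shared with any of them was 10 bases. The 5 neighbours were 81.8% to 90.0% identical to each other there, with shared runs of 41 to 88 bases. Counts of Gzmd, Gzme, Gzmf, Gzmg and Gzmn may therefore have been split or lost among these genes, and each of their levels is uncertain, but reads from the end of Gzmc carry letters that the others lack. Summed over the 5 neighbours, at least 5 counts were found in 8 of 150 Gzmc-high cells at 4 months (5.33%, 2.33% to 10.2%), 4 of 52 at 12 months (7.69%, 2.14% to 18.5%) and 9 of 48 at 20 months (18.8%, 8.95% to 32.6%). They were found in 2 of 980, 0 of 286 and 1 of 359 cells with low Gzmc, and in 4 of 2995, 0 of 4120 and 1 of 4624 T cells. Such cells were, in the wider gate, 30 of 369 (8.13%, 5.55% to 11.4%), 28 of 270 (10.4%, 7.00% to 14.6%) and 28 of 203 (13.8%, 9.37% to 19.3%) of the Gzmc-high cells. By the rule, such cells also held more Gzmc, with medians of 78.5, 58.5 and 66 Gzmc counts against 13, 16 and 14 in the other Gzmc-high cells. Their median totals were 7084, 8311 and 7114 against 7011, 5718 and 7039 counts. In the wider gate the medians were 110, 105 and 107 against 15, 19 and 16 Gzmc counts. Depth differed more there, with median totals of 12416, 8974 and 8350 against 8423, 7552 and 7357 counts.

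Of 9844 genes tested, 98 were higher (0.996%) and 280 lower (2.84%) in Gzmc-high cells at an adjusted p under 0.05, and the median difference of all tested genes was 0.02 on the log2 scale. The cells with low Gzmc included some with myeloid RNA: 13.7%, 6.64% and 5.57% of them, against 1.33%, 1.92% and 2.08% of Gzmc-high cells, had more than 15 Lyz2 counts. Without those cells, 66 genes were higher (0.695%) and 63 lower (0.664%) of 9495 tested, and 62 and 55 of these were among the 98 and 280. The wider gate gave 287 genes higher (2.10%) and 330 lower (2.42%) among 13641, 72 and 117 of them among the 98 and 280. Without the 12-month library 34 genes were higher and 129 lower, and without the 4-month library 76 were higher and 74 lower.

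The list of granzymes and granule genes, without Gzmc, had 21 tested members, of which 6 rose, 1 fell and 14 did not pass the test, with a median difference of 0.24, while 0.996% of all tested genes rose. In the wider gate, where 2.10% of all tested genes rose, 12 of 24 rose, Srgn (0.26), Serpinb9 (0.27) and Ifitm1 (0.81) among them, and none fell. The 6 include Gzmd and Gzmf, and the 12 include Gzmd, Gzme, Gzmf, Gzmg and Gzmn. These neighbours were nearly absent from the low class, so their calls add nothing to the levels. Beside Gzmd and Gzmf, Gzmb rose, from 4157, 3428 and 2709 CPM in the low class to 4670, 4832 and 4099 CPM (0.48 ± 0.09, n = 3, edgeR adjusted p = 0.0010). Prf1, the pore-forming perforin, measured 417, 516 and 491 against 357, 383 and 315 CPM (0.47 ± 0.10, edgeR adjusted p = 0.00347). Ctsw and Cst7, a cathepsin and a cystatin of killer cells, rose by 0.47 and 0.53. The rise of Gzmb was less than 2-fold in each library, whereas that of Gzmd and Gzmf was over 10-fold. Gzma, at 2970, 3359 and 2653 CPM against 3862, 2501 and 1845, did not pass the test (0.24 ± 0.11, edgeR adjusted p = 0.343), being lower in Gzmc-high cells at 4 months and higher at 12 and 20 months. Nkg7 (0.02), Fasl (-0.05) and Gzmk (0.38) did not pass either. Ifitm3, an interferon-induced membrane protein gene, was the member that fell (-0.55), but its difference was 0.16 without the cells of more than 15 Lyz2 counts, and Prf1 then had an edgeR adjusted p of 0.0818. Without the 12-month library Gzmb and Prf1 did not pass (edgeR adjusted p = 0.0720 and 0.0971), nor without the 20-month library (0.262 and 0.159).

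**Figure D2:**
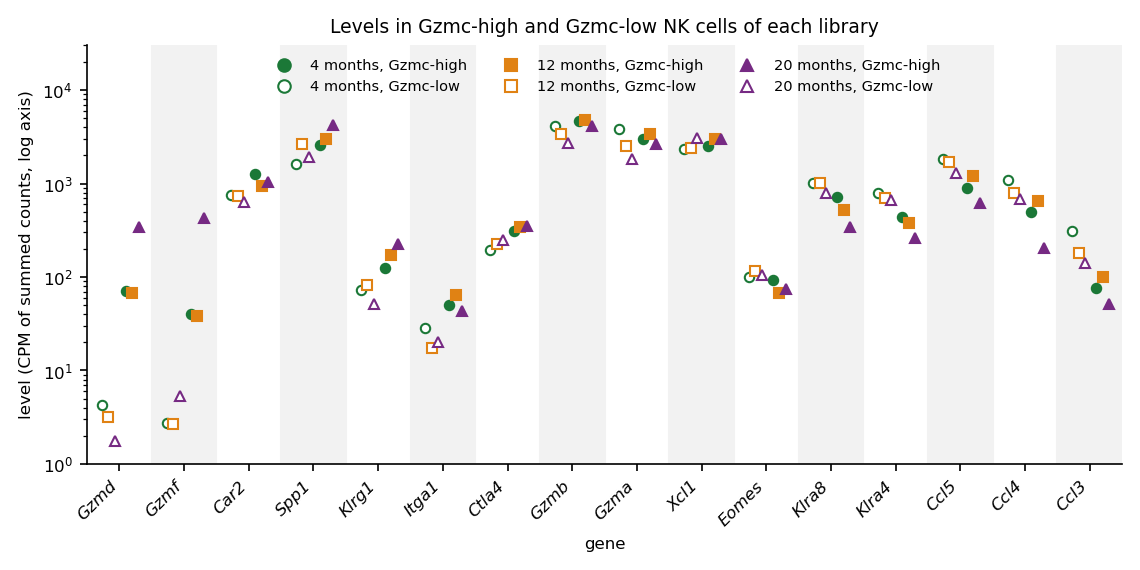
Level of 16 genes in CPM of summed counts (log axis) in Gzmc-high (filled) and Gzmc-low (open) NK cells, 1 symbol per library. Gzmd and Gzmf of the high class lie above 30 CPM and those of the low class below 6 CPM; Klra8, Klra4 and Ccl3 of the high class lie below the low class in every library.

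Genes of tissue residency rose in part. Of 17 tested members of that list 4 rose, none fell and 13 did not pass the test, with a median of 0.16, against 0.996% of all tested genes that rose. Itga1 measured 50.4, 64.8 and 43.6 CPM in Gzmc-high and 28.4, 17.5 and 20.1 CPM in Gzmc-low cells (1.22 ± 0.24, n = 3, edgeR adjusted p = 8.77e-04). Every high value exceeded every low one, as was true of 5.13% of all tested genes. With cells thinned to 3500 counts, 18.0%, 19.2% and 20.8% of Gzmc-high cells had an Itga1 count, against 8.57%, 4.90% and 5.85% of the low class. The shares were 8.31%, 8.16% and 6.79% in T cells, above the low class at 12 and 20 months, and 2.92%, 3.95% and 3.19% in macrophages. Without thinning the shares of Gzmc-high cells were 30.7%, 34.6% and 27.1%. Tnfrsf9, the costimulatory receptor 4-1BB, measured 567, 622 and 734 against 430, 506 and 447 CPM (0.53 ± 0.10, edgeR adjusted p = 6.86e-04), and Rgs1, a regulator of chemokine receptor signalling, rose by 0.61. Cxcr6, a chemokine receptor of tissue lymphocytes, rose by 0.71, with 68.1, 183 and 68.2 against 46.0, 78.5 and 68.7 CPM, but its levels at 20 months were nearly equal. Zfp683 and Itgae, further residency genes, were at most 8.84 CPM in Gzmc-high cells and were not tested, and Cd69 (-0.08), Rora (0.63) and Il7r (-0.52) did not pass. All 4 rises stayed past the threshold without the cells of more than 15 Lyz2 counts and in the wider gate, where Inpp4b rose too (0.45) and Socs3 fell (-0.69). Without the 12-month library Itga1 (0.99, edgeR adjusted p = 0.0731) and Cxcr6 (0.43, 0.402) did not pass, and without the 20-month library Tnfrsf9 did not (0.39, 0.0871). In the wider gate without the 12-month library Cxcr6 was again not called (0.226).

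Genes of circulating NK cells fell more often than they rose. Of 21 tested members 1 rose and 6 fell, with a median of -0.29, while 2.84% of all tested genes fell. Klra4 (Ly49D, an activating Ly49 receptor) measured 442, 380 and 259 CPM in Gzmc-high and 796, 701 and 675 CPM in Gzmc-low cells (-0.94 ± 0.11, n = 3, edgeR adjusted p = 1.87e-07). Klra8 (Ly49H, another activating receptor) measured 712, 516 and 346 against 1025, 1014 and 800 CPM (-0.79 ± 0.11, edgeR adjusted p = 4.84e-06). Neither gene overlapped between the classes, as was true of 11% of all tested genes in that direction and of 5.13% in the other. In thinned cells the share with a Klra8 count was 53.3%, 38.5% and 31.2% of Gzmc-high cells and 57.4%, 59.8% and 50.7% of the low class, and in T cells it was 18.9%, 13.5% and 7.59%. Without thinning it was 60.0%, 48.1% and 39.6% in Gzmc-high and 64.8%, 65.0% and 54.3% in Gzmc-low cells.

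Other Ly49 genes did not follow. Klra7 (597, 625 and 567 against 667, 674 and 701 CPM) and Klra3 (338, 348 and 368 against 318, 343 and 395 CPM) did not pass the test by the rule. Their differences in the wider gate were -0.20 and -0.18, with edgeR adjusted p of 0.0476 and 0.0426. The Ly49 genes are close relatives, and reads shared among them may be assigned unevenly. Klf2, a transcription factor of lymphocyte recirculation, measured 31.8, 20.6 and 27.3 against 50.9, 71.1 and 47.7 CPM (-0.88 ± 0.22, n = 3, edgeR adjusted p = 0.0140). Zeb2 (-1.22) and Itgam (-1.10) fell too, but both are high in myeloid cells. Without the cells of more than 15 Lyz2 counts Zeb2 still fell (-0.82), and Itgam did not pass (-0.44, edgeR adjusted p = 0.855). Klf2 did not pass without the 12-month library (-0.64, edgeR adjusted p = 0.248), nor Zeb2 without the 4-month library (-0.60, 0.343), nor Itgam without either (-1.08 and -0.73).

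Klrg1 was the exception in this list. This inhibitory receptor of mature NK cells measured 125, 171 and 224 CPM in Gzmc-high and 72.1, 82.2 and 51.7 CPM in Gzmc-low cells (1.30 ± 0.17, n = 3, edgeR adjusted p = 1.96e-06). It also rose without the cells of more than 15 Lyz2 counts (1.14) and in the wider gate (1.30). Eomes and Tbx21, the T-box factors of the NK lineage, measured 93.7, 67.8 and 73.6 against 99.9, 115 and 104 CPM and 78.7, 118 and 142 against 72.9, 95.5 and 75.8 CPM, and neither passed the test. With the wider gate, where 2.42% of all tested genes fell, 12 of 22 tested members fell. They included Eomes (-0.44), Itga2, the CD49b subunit of the common NK marker DX5 (-1.29), S1pr5, a receptor for leaving tissue (-1.82), and Cd27 (-0.51). Cma1 was among them (-2.46), and the mast cell markers summed to 98.1, 237 and 66.2 CPM in the low class of the wider gate against 19.8, 27.9 and 14.6 CPM in its Gzmc-high cells; their part in that fall was not tested.

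Of 27 tested NK receptor genes 4 rose and 1 fell, with a median of 0.09, against 0.996% and 2.84% of all tested genes. Klrb1b, an inhibitory receptor of the NKR-P1 family, measured 133, 177 and 128 against 71.2, 84.4 and 86.5 CPM (0.92 ± 0.14, n = 3, edgeR adjusted p = 2.66e-05). Cd96, a receptor for nectin-family ligands, measured 113, 133 and 125 against 75.3, 83.8 and 65.1 CPM (0.76 ± 0.15, edgeR adjusted p = 7.61e-04). Ctla4, an inhibitory receptor best known from T cells, measured 309, 342 and 349 against 195, 228 and 252 CPM (0.65 ± 0.10, edgeR adjusted p = 7.59e-05). None of these 3 overlapped between classes, as was true of 5.13% of all tested genes in that direction. In T cells Ctla4 stood higher still, at 550, 470 and 432 CPM, and the part of T cell RNA in this rise was not tested. Klrd1, the CD94 chain, rose by 0.38, but had an edgeR adjusted p of 0.126 without the cells of more than 15 Lyz2 counts and of 0.0713 to 0.113 without any 1 library. The wider gate called 6 higher, Cd244a (0.34) and the inhibitory receptor gene Lag3 (0.42) being added, and 2 lower, Klri2 (-0.23) and Slamf6 (-0.96), of 28. There 2.10% of all tested genes rose and 2.42% fell. Klrk1 (NKG2D, 0.06), Klrc1 (0.14), Tigit (-0.35), Pdcd1 (0.14) and Havcr2 (-0.59) did not pass the test. Fcgr3, the Fc receptor CD16, fell by 0.49 under the rule but differed by 0.05 without the cells of more than 15 Lyz2 counts.

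**Figure D3:**
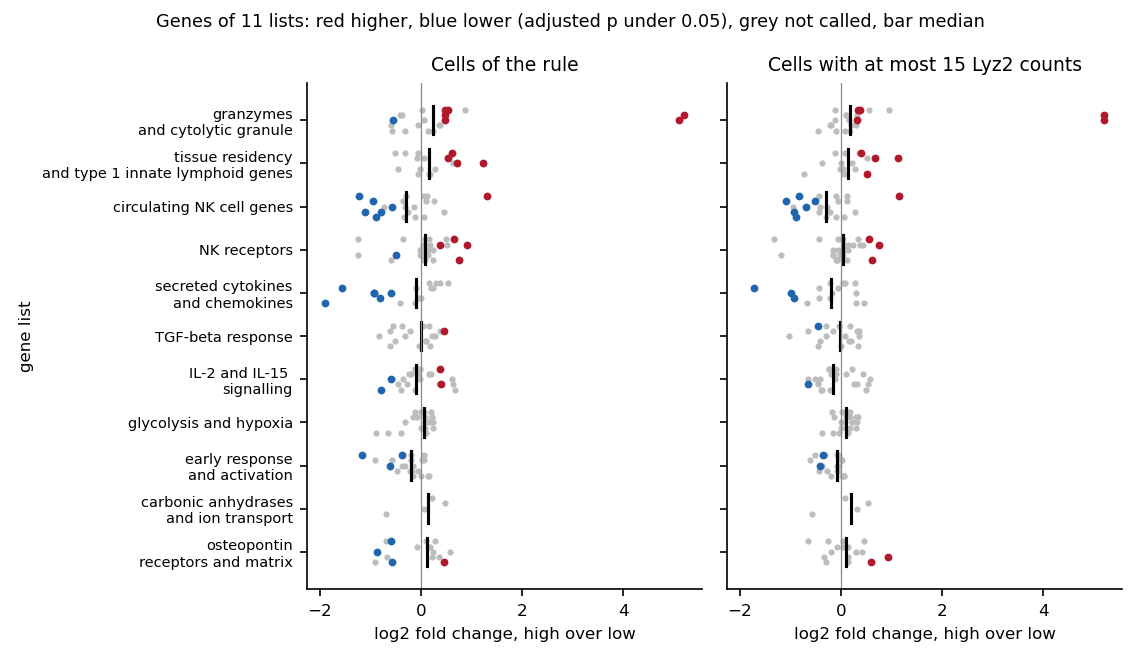
Fitted log2 difference, Gzmc-high over Gzmc-low, of each tested gene in 11 lists, for the cells of the rule (left) and without cells of more than 15 Lyz2 counts (right), with the list's median as a bar and called genes in red (higher) or blue (lower). Gzmd and Gzmf stand beyond 5 in both panels, and the lower calls of the osteopontin list (Cd44, Lgals3 and Vim) are grey in the right one.

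No secreted cytokine or chemokine gene rose by the rule, and 6 of 17 tested fell, with a median of -0.10, while 2.84% of all tested genes fell. The inflammatory chemokines carried by NK cells were lower: Ccl3 at 76.0, 100 and 51.8 against 312, 179 and 142 CPM (-1.56 ± 0.16, n = 3, edgeR adjusted p = 4.85e-08). Ccl4 measured 500, 651 and 202 against 1084, 800 and 677 CPM (-0.93 ± 0.13, edgeR adjusted p = 9.00e-06), and Ccl5 890, 1217 and 619 against 1832, 1699 and 1293 CPM (-0.80 ± 0.10, edgeR adjusted p = 1.12e-06). All 3 also fell without the cells of more than 15 Lyz2 counts, by 1.72, 0.99 and 0.93, and in the wider gate. The same genes were abundant in T cells, where Ccl5 reached 4930, 4532 and 5795 CPM. The falls of Ccl9, Cxcl10 and Osm were not called without the cells of more than 15 Lyz2 counts. Xcl1, the chemokine by which NK cells attract cross-presenting dendritic cells, was among the most abundant transcripts and did not pass (2513, 3026 and 2997 against 2331, 2412 and 3063 CPM). Ifng (110, 194 and 65.4 against 149, 117 and 92.3 CPM), Tnf and Csf2 did not pass either. Xcl1 rose by 0.28 in the wider gate (edgeR adjusted p = 0.0210).

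Signalling lists had few calls by the rule and more in the wider gate. Of all tested genes 0.996% rose and 2.84% fell by the rule, and 2.10% rose and 2.42% fell in the wider gate. Of 24 tested genes of IL-2 and IL-15 signalling 2 rose, Il2rb (0.37), the receptor chain that IL-2 and IL-15 share, and Id2 (0.39), a regulator needed by innate lymphocytes. Pim1 and Mcl1, a kinase and a survival factor, fell (-0.59 and -0.79). None of these 4 was called without the cells of more than 15 Lyz2 counts, where Pim2 alone passed (-0.65). Leaving out 1 library also ended each of these calls in at least 1 case. The wider gate called all 4 in the same direction, with Cish higher (0.57) and Socs2 (-0.89), Pim2 (-0.50), Il18r1 (-0.62) and Il18rap (-0.38) lower, so 3 of 24 rose and 6 fell against 2.10% and 2.42% of all genes. Of 18 tested TGF-beta response genes 1 rose, Ctla2a, a cysteine protease inhibitor, at 348, 407 and 352 against 241, 302 and 316 CPM (0.45 ± 0.10, n = 3, edgeR adjusted p = 0.00578), and the median was 0.01. Ctla2a did not pass without the cells of more than 15 Lyz2 counts (0.0576), the 4-month library (0.333) or the 12-month library (0.108), but rose in the wider gate (0.35), where Cd9 (-0.42) and Tgif1 (-0.36) fell. Of 23 tested genes of glycolysis and hypoxia none was called, with a median of 0.07, and of 22 early response genes 3 fell, Fos (-0.62), Nfkbia (-0.37) and Atf3 (-1.17), with a median of -0.20. Fos and Nfkbia, a transcription factor and an inhibitor of NF-kappaB, were also called without the cells of more than 15 Lyz2 counts, but Nfkbia was not without the 4-month or the 12-month library (0.128 and 0.392). The wider gate called Pgk1, a glycolytic enzyme, higher (0.26), and 8 of 25 early response genes lower, Nr4a1 (-0.61) and Fosb (-0.34) among them.

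Car2 and Spp1 were named with the cells as their markers and were not tested. Car2, carbonic anhydrase II, which interconverts carbon dioxide and bicarbonate, measured 1276, 937 and 1039 CPM in Gzmc-high cells. It measured 750, 744 and 637 CPM in cells with low Gzmc and 47.9, 34.8 and 20.5 CPM in T cells. In thinned cells a Car2 count was found in 92.7%, 90.4% and 89.6% of Gzmc-high cells, 73.5%, 76.6% and 74.7% of the low class and 14.5%, 11.2% and 6.51% of T cells, and without thinning in 98.7%, 94.2% and 97.9% of Gzmc-high cells. Car2 thus marked NK cells of both classes and stood higher in the Gzmc-high class. Of 13 further carbonic anhydrase and ion transport genes only 4 were tested, and none was called. Car3, Car4 and Car11 had no count in Gzmc-high cells, and Car1, Car8, Car9, Car12 and Car13 were each below 9 CPM in them.

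Spp1, osteopontin, a secreted phosphoprotein that binds integrins and CD44, measured 2590, 2987 and 4183 CPM in Gzmc-high, 1639, 2667 and 1946 CPM in Gzmc-low and 164, 177 and 96.1 CPM in T cells. The 2 classes were closest at 12 months, where Spp1 in the low class was also highest. In thinned cells 82.7%, 90.4% and 83.3% of Gzmc-high and 66.6%, 69.9% and 60.7% of Gzmc-low cells had a count, beside 42.4%, 41.0% and 23.6% of T cells, and without thinning 88.7%, 92.3% and 93.8% of Gzmc-high cells did. Only 5 cells held 28.3%, 43.9% and 55.3% of the Spp1 counts of the high class. In the list of osteopontin receptors and matrix genes, 1 of 16 tested rose, S100a6, a calcium-binding protein, from 1599, 1412 and 1536 to 1728, 1933 and 2402 CPM (0.46 ± 0.10, n = 3, edgeR adjusted p = 0.00248). Cd44, Lgals3 and Vim fell under the rule, and none of the 3 was called without the cells of more than 15 Lyz2 counts, where S100a4 rose by 0.93 and S100a6 by 0.60. S100a6 did not pass without the 12-month or the 20-month library (edgeR adjusted p = 0.123 and 0.328). Of 17 tested in the wider gate 5 rose (Itgb3, Lgals1, S100a4, S100a6 and S100a11) and 3 fell (Itga4, Cd44 and Vim). Of all tested genes 0.996% rose and 2.84% fell by the rule, and 2.10% rose and 2.42% fell in the wider gate.

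The 15 largest rises among genes of at least 20 CPM were, after Gzmd and Gzmf, those of Sema6d, Gng11, Dpp6, Osbpl1a, Klf12, Gpr34, Ccdc184, Gphn, Ppp1r3b, Gm36723, Klrg1, Dscam and Itga1. Several rested on single cells: for Sema6d (a semaphorin, 60.1, 20.6 and 8.18 against 3.19, 7.43 and 4.01 CPM) 5 cells held at least 91.2% of the counts. Dpp6, Klf12 and Gphn were likewise carried by 5 cells in at least 1 library (90.3%, 78.4% and 88.1% at 4 months) and were not called in the wider gate (edgeR adjusted p = 0.399, 0.212 and 0.404). Gm36723, a long intergenic non-coding RNA gene on chromosome 12, was spread over more cells and stood higher in every library, at 148, 183 and 134 against 64.7, 62.1 and 66.4 CPM (1.30 ± 0.14, n = 3, edgeR adjusted p = 9.35e-08). Gpr34, a lysophosphatidylserine receptor, measured 38.9, 53.0 and 51.8 against 14.6, 19.1 and 17.8 CPM (1.52 ± 0.25, edgeR adjusted p = 8.36e-05). Ppp1r3b, a subunit that directs a phosphatase to glycogen, measured 25.6, 38.3 and 24.5 against 12.3, 11.7 and 8.47 CPM (1.40 ± 0.31). Gng11, a G protein subunit, measured 21.2, 23.6 and 27.3 against 6.99, 5.31 and 2.23 CPM (2.18 ± 0.39). Gm36723, Gpr34, Ppp1r3b, Gng11, Dscam and Osbpl1a were called in all 3 sets of cells, by the rule, without the cells of more than 15 Lyz2 counts and in the wider gate. By the rule Gng11 and Sema6d passed the filter on low counts through the high class, so their calls add nothing to the levels. Without the 12-month library Ppp1r3b, Gng11, Dscam and Osbpl1a did not pass, nor did Dscam without the 4-month library, whereas Gm36723 and Gpr34 passed without any 1 library.

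The 15 largest falls were those of Shtn1, Pid1, Ifitm6, Atrnl1, Cxcl9, Creb5, Mgst1, Cd40, Alox5ap, Ccl9, Wdfy4, BC028528, Ccl2, Hp and Pcdh9, between -2.29 and -1.77. The 14 myeloid markers summed to 2273, 2404 and 2667 CPM in Gzmc-high and 5186, 3917 and 3820 CPM in Gzmc-low cells. With at most 15 Lyz2 counts these sums were 2175, 2112 and 2260 against 2178, 2196 and 2375 CPM, and only Cd40, Cxcl9, Alox5ap and Pcdh9 of the 15 were still called. Cd40, a costimulatory receptor of antigen-presenting cells, measured 7.95, 11.8 and 8.18 against 42.1, 38.7 and 30.3 CPM and fell by 1.99 in that set (edgeR adjusted p = 0.00191). The dendritic cell markers, 3 of them of MHC class II presentation, summed to 2078, 2825 and 2588 CPM in Gzmc-high cells, 5222, 5852 and 4028 CPM in the low class and 2564, 3921 and 3230 CPM in T cells. Of these 10 markers, 1 had no count in Gzmc-high cells at 4 months (Clec9a), 2 at 12 months (Cd209a and Siglech) and 5 at 20 months (Xcr1, Flt3, Clec9a, Cd209a and Siglech). Cd74, the invariant chain, accounted for most of that sum, at 1150, 1535 and 1426 against 2955, 3276 and 2393 CPM (-1.02, edgeR adjusted p = 1.67e-08). With at most 15 Lyz2 counts Cd74 fell by 0.78 and H2-Ab1 by 0.75, and in the wider gate by 0.73 and 0.80, while the dendritic cell sum of the low class was 4225, 4857 and 3655 CPM; the part of antigen-presenting cells in these falls was not tested.

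Gzmc-high cells differed among themselves with their Gzmc count. There were 56, 20 and 13 cells with 5 to 9 Gzmc counts, 33, 9 and 12 with 10 to 19, and 61, 23 and 23 with 20 or more. Gzmd was at 0, 0 and 23.2 CPM in the lowest of these ranges, 8.71, 65.6 and 106 CPM in the middle one and 158, 127 and 616 CPM in the highest. Gzmf was at 83.9, 80.2 and 841 CPM in the highest range and at most 16.4 CPM in the other two. Of the 23 cells at 20 months with 20 or more Gzmc counts 8 held at least 5 counts of the 5 neighbours, as did 8 of 61 at 4 months and 3 of 23 at 12 months. Gzmb showed no such order, at 5052, 5930 and 2834 CPM in the lowest range and 4279, 3990 and 5081 CPM in the highest.

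Car2 was higher in the highest Gzmc range than among NK cells without a Gzmc count in every library, at 1401, 1043 and 1083 against 656, 695 and 605 CPM, and its level was higher in each successive range of all 3 libraries. Within the Gzmc-high class, Spp1 was higher in each successive range at 4 months (1338, 2721 and 3534 CPM) and at 20 months (1742, 4402 and 5199 CPM), but not at 12 months (2973, 3444 and 2814 CPM). Klra4 measured 860, 768 and 775 CPM without a Gzmc count and 440, 107 and 209 CPM with 20 or more. Klra8 measured 1037, 1038 and 799 CPM and 622, 394 and 300 CPM, and both receptors were lower in the highest range in every library. Itga1 stood at 22.7, 15 and 17.7 CPM without a Gzmc count and at 72.0, 73.5 and 42.9 CPM with 20 or more. These are levels of 9 to 61 cells per range of Gzmc-high cells, with no test, and the Gzmc count of a cell also depends on its depth.

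**Figure D4:**
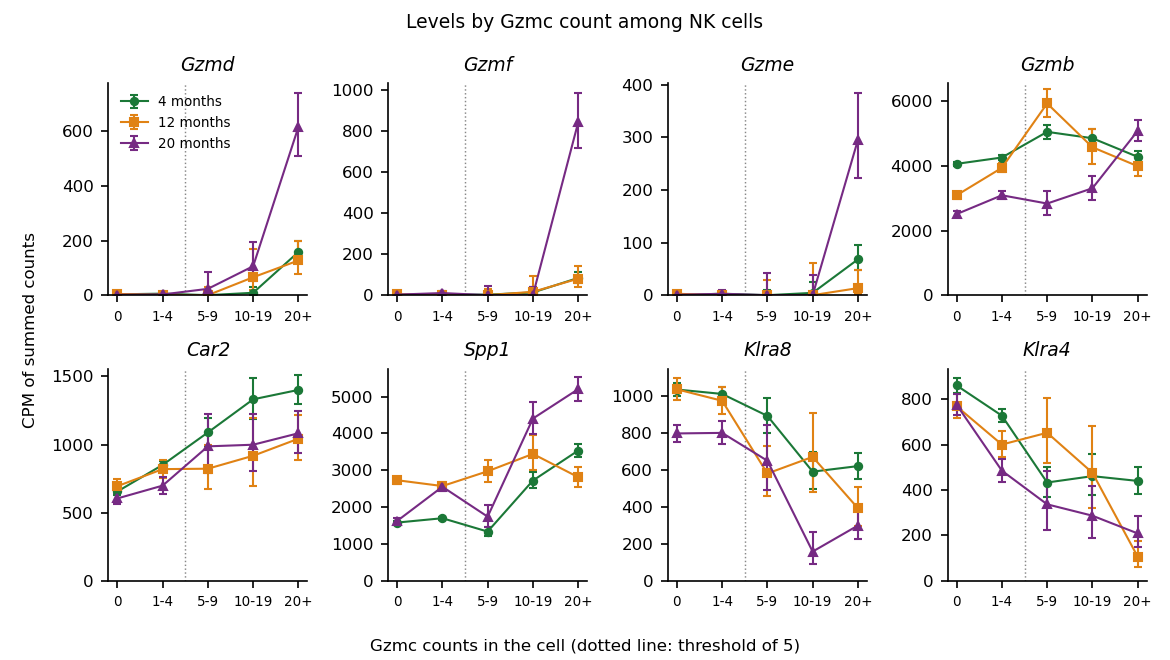
Level (CPM of summed counts, with 95% exact Poisson intervals for counting error) of 8 genes in NK cells with 0, 1 to 4, 5 to 9, 10 to 19 and 20 or more Gzmc counts, 1 line per library. Gzmd, Gzmf and Gzme are at most 23.2 CPM below 10 Gzmc counts and highest at 20 or more in every library, Car2 is higher and Klra8 and Klra4 are lower at 20 or more than at 0, and Gzmb has no common order.

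The age comparison in Gzmc-high cells has 1 library per age and no test. Of 3422 genes with at least 50 CPM in 1 or more libraries, 70 were past 2-fold higher at 20 than at 4 months (2.05%) and 109 past 2-fold lower (3.19%), with a median log2 ratio of -0.06. With the wider gate and more cells, 15 (0.508%) and 10 (0.339%) of 2953 were past 2-fold. The 8 genes with the largest rises whose 12-month level did not lie outside the others were Npy6r, Zbtb6, 4930473D10Rik, 5730403I07Rik, Cfap54, Foxp2, Spsb4 and Hsd17b11. In all of these but Hsd17b11, 5 cells held 100% of the counts at 20 months. Hsd17b11, a steroid and lipid droplet dehydrogenase gene, measured 2.65, 2.95 and 84.5 CPM (log2 ratio 4.99, 95% interval 3.31 to 7.35). It was higher by 3.65 in cells with low Gzmc, 4.98 in T cells and 2.96 in macrophages, so the rise was common to the cells of the 20-month library. The 8 largest falls were Slc5a6, Gm12153, Bicd2, Dock1, Gm4956, S100a8, Kif6 and Myo3b, each with 0 to 2 counts at 20 months, and that of Slc5a6 reversed in the wider gate. At 4 months 5 cells held between 61.0% (Gm4956) and 100% (Kif6) of the counts of each. In the low class Gm12153 (1.51), Myo3b (0.70) and Kif6 (0.55) were higher at 20 months, and the others were lower. For S100a8, a neutrophil gene, 5 cells held 90.7% of the counts at 4 months, and the 8 neutrophil markers summed to 194, 41.2 and 27.3 CPM in Gzmc-high cells; their part in this fall was not tested.

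The granzyme neighbours were higher at 20 than at 4 months, with log2 ratios of 3.40 (2.91 to 3.90) for Gzmf, 2.27 (1.86 to 2.69) for Gzmd, 2.28 (1.64 to 2.93) for Gzme, 3.21 (1.21 to 5.73) for Gzmg and 2.74 (1.25 to 4.42) for Gzmn, all carried by few cells. With the wider gate, where Gzmf measured 111, 119 and 329 CPM and Gzmd 174, 176 and 297 CPM, the ratios of these 2 genes were 1.57 (1.38 to 1.76) and 0.78 (0.60 to 0.95), and that of Gzmn was 0.57 (-0.08 to 1.21). Klra8 was lower at 20 months in Gzmc-high cells (-1.04, -1.32 to -0.77), in the low class (-0.36, -0.43 to -0.28) and in T cells (-1.29) and macrophages (-1.34). Klra4 was lower too, at -0.77 (-1.10 to -0.45) and -0.24 (-0.32 to -0.16) in the 2 NK classes. Klrg1 was higher at 20 months in Gzmc-high cells (0.83, 0.42 to 1.24) and lower in the low class (-0.48, -0.79 to -0.18). Its ratio in Gzmc-high cells of the wider gate was 0.14 (-0.07 to 0.35). Gzma, at -0.16 (-0.27 to -0.06), moved little in Gzmc-high cells, beside -1.07 (-1.11 to -1.02) in the low class and -1.79 in T cells. Fos was lower at 20 months in Gzmc-high cells (-1.0), in the low class (-0.73), in T cells (-0.60) and in macrophages (-0.61). The log2 ratio of Car2 was -0.30 in Gzmc-high, -0.24 in Gzmc-low, -1.22 in T cells and -1.19 in macrophages. That of Spp1 was 0.69 in Gzmc-high, 0.25 in Gzmc-low, -0.77 in T cells and -0.85 in macrophages, and in the wider gate 0.11 and -0.02 in the Gzmc-high and Gzmc-low cells. These intervals cover counting error only, and age cannot be told apart from the library.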

How the data were processed

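Live CD45-positive cells of YUMM1.7 tumours were profiled in 1 library per age. For each library the authors deposited whole-number counts, one matrix of genes by cells, whose totals differ between libraries. The submitters' processing notes name STAR 2.7.10a and GRCm38; the annotation, the cell calling, the use of strand and whether molecules or reads were counted are not given in the sources used here. Of 55401 gene identifiers 54349 (98.1%) occur in GENCODE M21, whose positions are used. Totals per library were 110371225 to 127850782 counts and no cell had fewer than 3555.

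The cells, markers and gene lists were chosen with earlier results of these data known. Cells were picked by the limits given above, and no other filter was applied. Doublets were scored with Scrublet (scanpy 1.11.5), marking the 6% of cells with the highest score per library; marked cells were kept, and left out in an alternative. Counts were summed per library and class and tested with edgeR 4.0.16 (R 4.3.3): TMM scaling, filterByExpr, the quasi-likelihood test with the library as a term, and Benjamini-Hochberg adjustment over all genes tested. Both classes of a library come from the same animals, which is why the library is a term of the model; p-values measure the spread between 3 libraries that differ in age. Genes of the rule were not tested, and Car2 and Spp1 are given without a test. On simulated counts for this comparison, with 200 of 9844 genes changed, the test recovered 40.4% of 2-fold and 97.4% of 4-fold changes, with 2 and 13 false calls. The simulated sums were drawn from fitted dispersions and not built from single cells. They therefore do not give the rate of false calls for genes whose counts rest on a few cells. Named genes were the 15 largest rises and 15 largest falls with an adjusted p under 0.05, the same sign in 3 libraries and at least 20 CPM, the 8 largest monotonic age changes each way, and any gene of the lists and markers. Gene lists are described by counts and medians. Shares have exact (Clopper-Pearson) binomial and levels exact Poisson 95% intervals, and cells were thinned to 3500 counts where shares of cells are compared. Intervals and the limit of 3 counts that a count of 0 allows cover counting error only. Motifs were searched on both strands of RefSeq promoter windows (GRCm38.p6). Alternatives were DESeq2 1.42.0, no filter, each library left out, other Gzmc thresholds, thinned cells, a depth range, a stricter gate (at least 3 Ncr1 and Klrb1c, no Cd3, at most 2 C1q counts), no doublets and no library term. The limit of 15 Lyz2 counts and the wider gate were added after the data were seen. Values of some list and marker genes are not reported here.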

Additional observations from a re-analysis of the deposited data

Results flagged for a closer look

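The Cd3 limit left out 356, 427 and 292 cells at 4, 12 and 20 months that had at least 5 Gzmc and at least 2 Ncr1 and Klrb1c counts, more than it kept in every library. There were 4 T cells at 12 months and 7 at 20 months that held at least 5 Gzmc counts. Lists of 3 kinds had medians of opposite sign in different libraries, which was not tested. The median log2 ratio of Gzmc-high over Gzmc-low cells was 0.03 at 4 months, -0.08 at 12 months and -0.19 at 20 months for IL-2 and IL-15 signalling. It was -0.05, -0.62 and 0.40 for carbonic anhydrases and ion transport, where only 4 genes were tested, and -0.18, 0.07 and -0.04 for osteopontin receptors and matrix.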

How the results depend on the processing

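By the rule, 98 genes were higher and 280 lower in Gzmc-high cells. The counts were 28 and 72 with the DESeq2 Wald test, 129 and 487 with no filter on low counts, 5 and 4 in the stricter gate, 66 and 63 with at most 15 Lyz2 counts and 287 and 330 in the wider gate. Without 1 library at a time they ranged from 34 to 104 and from 74 to 313, and in the wider gate from 116 to 261 (247 without the 20-month library) and from 184 to 372. With no replicate block, that is without the library as a term of the model, they were 16 and 36, all among the 98 and 280. Other settings gave 70 to 102 higher and 210 to 334 lower genes.

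The Gzmc-high shares at 4, 12 and 20 months were 18.8%, 21.3% and 15.5% at 3 or more Gzmc counts and 8.75%, 10.1% and 8.88% at 10 or more. They were 11%, 16.7% and 4.88% in the stricter gate, with 2 Gzmc-high cells at 20 months, and 17.1%, 17.6% and 16.4% in the wider gate. Genes past 2-fold higher and lower with age numbered 282 and 510 at a level of 20 CPM and 15 and 10 in the wider gate. The stricter gate gave 3102 and 159, with a median log2 ratio of all genes of 1.54. A gene without a count was taken at the limit of 3 counts, which is a high level in a library of 2 cells. The values of the stricter gate therefore do not measure a change with age.

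List medians in the stricter gate were -0.48 for circulating NK genes, -0.13 for NK receptors, -0.39 for IL-2 and IL-15 signalling, 0.19 for glycolysis, -0.09 for early response and -0.03 for osteopontin receptors. At 3 or more Gzmc counts they were 0.12 for granzymes, 0.05 for residency, 0.05 for NK receptors and -0.16 for early response, and at 10 or more 0.15, 0.05 for residency, -0.27 for cytokines and -0.25 for early response. Without doublets residency was at 0.05, glycolysis at 0.02 and early response at -0.26. With at most 15 Lyz2 counts NK receptors were at 0.04, glycolysis at 0.11 and early response at -0.08, and in the wider gate at 0.04, 0.15 and -0.13, with osteopontin receptors at -0.02. Thinned cells gave 0.02 for glycolysis. With no filter on low counts the median of all genes was -0.33, and the medians of osteopontin receptors (-0.19), NK receptors (-0.04), glycolysis (-0.06) and residency (-0.01) were below 0. Leaving out 1 library gave medians of 0.03 to 0.05 for glycolysis, 0.09 to 0.25 for granzymes, 0.06 to 0.13 for NK receptors and -0.16 to 0.00 for TGF-beta response, against 0.07, 0.24, 0.09 and 0.01 with all 3.

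Some named genes changed sign: in the stricter gate Fcgr3 (0.42), S100a6 (-0.01), Cxcl10 (0.06), Klrd1 (-0.14), Ifitm3 (0.32), Id2 (-0.07), Fos (0.19) and Ctsw (-0.06). With at most 15 Lyz2 counts these were Fcgr3 (0.05), Ifitm3 (0.16) and Lgals3 (0.14), and in the wider gate Mgst1 (0.03), Fcgr3 (0.04), Ifitm3 (0.01), Lgals3 (0.01) and the age ratio of Slc5a6 (0.33). In the wider gate without the 4-month library they were Gphn (-0.35), Ccl9 (0.01), Mgst1 (0.07), Fcgr3 (0.05), Ifitm3 (0.23) and Lgals3 (0.22). Without the 12-month library they were Mgst1 (0.01) and Fcgr3 (0.07), and without the 20-month library Atrnl1 (0.19), Hp (0.12), Mgst1 (0.03) and Fcgr3 (0.02). The causes were not tested. Of 30 named rises 24 stayed past the threshold with at most 15 Lyz2 counts and 27 in the wider gate, and of 36 named falls 14 and 21 did. With 250 Gzmc-high cells, genes below about 20 CPM rest on few counts.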
